A study of Mus musculus with 2 samples.

Results

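The genes described here are the autosomal, protein-coding translation initiation and elongation factors of the mouse, chosen by symbol alone: those whose names begin with Eif and a number between 1 and 6, or with Eef1 or Eef2. Of 65 such genes, 64 had an entry in the deposited quantifications, out of 43346 annotated genes in all, and Eef1akmt4, an elongation factor methyltransferase, was not analysed here. The rule uses no measured value. The tissue was frontal cortex from 8-week-old mice of the inbred strain C57BL/6J, with no engineered allele or treatment named in the labels, and the labels describe it as pooled from males and females. Polyadenylated RNA above 200 nt, depleted of ribosomal RNA, was sequenced as stranded paired-end reads in 2 biological replicates of this 1 group. The study therefore has no contrast between conditions, and what follows gives the levels of the factors, the ratios among them and the differences between the replicates, each a single library. The labels name a separate tissue sample for each replicate under 1 donor entry and do not say how many animals were pooled.

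In eukaryotes, initiation begins when eIF2, loaded with GTP and initiator tRNA, joins the small ribosomal subunit together with eIF1, eIF1A, eIF5 and the large scaffold eIF3. The cap-binding complex of eIF4E, eIF4G and the helicase eIF4A recruits the mRNA, and after the start codon is found eIF5B joins the large subunit. In elongation, eEF1A delivers aminoacyl-tRNA, the eEF1B subunits recharge eEF1A with GTP, eEF2 moves the ribosome along the mRNA and eIF5A relieves stalling. In neurons these steps are controlled by phosphorylation of eIF2, of the eIF4E-binding proteins and of eEF2, and are studied for their part in synaptic plasticity and memory.

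Expected counts, the estimated number of fragments for each gene, came to 106084891 for the library of replicate 1 and to 90476207 for that of replicate 2. The 64 factors took 963267 and 782719 of them. Levels are given as TPM, a library's transcripts on a length-adjusted common scale, as mean ± SD over the 2 libraries. Marker genes of cortical neurons were abundant, with 707 ± 2.81 TPM of Camk2a and 424 ± 32.5 TPM of Slc17a7, whereas of the 4 markers from outside the cortex 1 reached 1 TPM. Among these Hoxc8, a spinal cord marker, had 0 counts in both libraries, Slc17a6 of subcortical neurons had 4.26 and 3.45 TPM, Ttr of the choroid plexus 0.93 and 0.85 TPM and Alb of liver 0.05 and 1.11 TPM. Other cell types were present as well, since Mbp of oligodendrocytes averaged 1129 ± 207 TPM. In bulk tissue, fewer cells of a type and less RNA per cell cannot be told apart. The libraries were split by sex-linked genes in a way the pooled label does not describe. Xist, the RNA that silences one X chromosome in females, had 107 counts in replicate 1 and 77696 in replicate 2, and the Y-linked Ddx3y had 4584 counts and 1 count. Any difference between the replicates therefore cannot be told apart from a difference in sex.

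Several factors come as closely related gene pairs, so the sequences below show how far a single read can tell members of a pair apart. For each of 3 pairs, the read-length stretch of coding sequence with the fewest differences is printed, from GENCODE M21 transcripts, with differing bases in capitals.
Eef1a1: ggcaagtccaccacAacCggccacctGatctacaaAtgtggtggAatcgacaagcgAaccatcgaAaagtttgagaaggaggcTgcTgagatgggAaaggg
Eef1a2: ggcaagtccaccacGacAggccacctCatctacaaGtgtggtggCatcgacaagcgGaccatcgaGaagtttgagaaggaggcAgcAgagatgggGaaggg
Eif4a2: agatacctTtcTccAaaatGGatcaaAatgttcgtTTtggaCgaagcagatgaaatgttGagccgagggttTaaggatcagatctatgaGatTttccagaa
Eif4a1: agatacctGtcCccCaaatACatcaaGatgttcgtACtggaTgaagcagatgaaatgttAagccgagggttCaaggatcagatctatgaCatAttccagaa
Eif2s3x: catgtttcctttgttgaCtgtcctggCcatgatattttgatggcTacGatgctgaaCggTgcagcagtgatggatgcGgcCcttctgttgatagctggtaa
Eif2s3y: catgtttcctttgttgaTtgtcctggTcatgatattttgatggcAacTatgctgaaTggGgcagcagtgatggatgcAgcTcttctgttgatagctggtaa

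Even in these stretches Eef1a1 and Eef1a2 differed at 10 bases, Eif4a2 and Eif4a1 at 13, and Eif2s3x and Eif2s3y at 8. Over the whole coding sequence the identity was 80.1%, 78.1% and 86.3% for these pairs. Eif3j1 and its copy Eif3j2 were the exception, because all 786 aligned bases of their coding sequences were identical and 684 stretches of read length held no difference. The split of reads between those 2 genes is therefore uncertain in the coding part, and the deposited posterior SD was 47.0 counts in replicate 1 and 42.1 counts in replicate 2 for each of them.

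The translation factors ranged from among the most abundant mRNAs of the cortex to undetected, with elongation factors at the top. The summed level of the 64 genes was 6685 TPM in replicate 1 and 6111 TPM in replicate 2, or 0.640 ± 0.0406% of all TPM. Of the 64, 62 reached 1 TPM in both libraries, against 61.9% of 20337 autosomal protein-coding genes. At 10 TPM the count was 51, against 36.5%, and at 100 TPM it was 14, against 4.07%. The median factor stood at 33.3 TPM and the median autosomal protein-coding gene at 4.45 TPM. Among those protein-coding genes, 23 of the factors lay in the top 10% by level. The 3 most abundant factors, Eef1a1, Eef2 and Eef1a2, together made up 44.1% of the summed level, and the first 6 made up 59.0%. At the other end, Eif4e1b, an eIF4E relative known from oocytes, had 0 counts in both libraries. By counting error this allows up to 3 counts, or 0.0474 and 0.0529 TPM. Its deposited intervals of TPM lay higher, at 0.0836 to 0.360 in replicate 1 and 0.0966 to 0.409 in replicate 2. Eef1akmt3 had 20 and 26 counts, at 0.10 and 0.14 TPM, and was the other factor under 1 TPM.

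**Figure D1:**
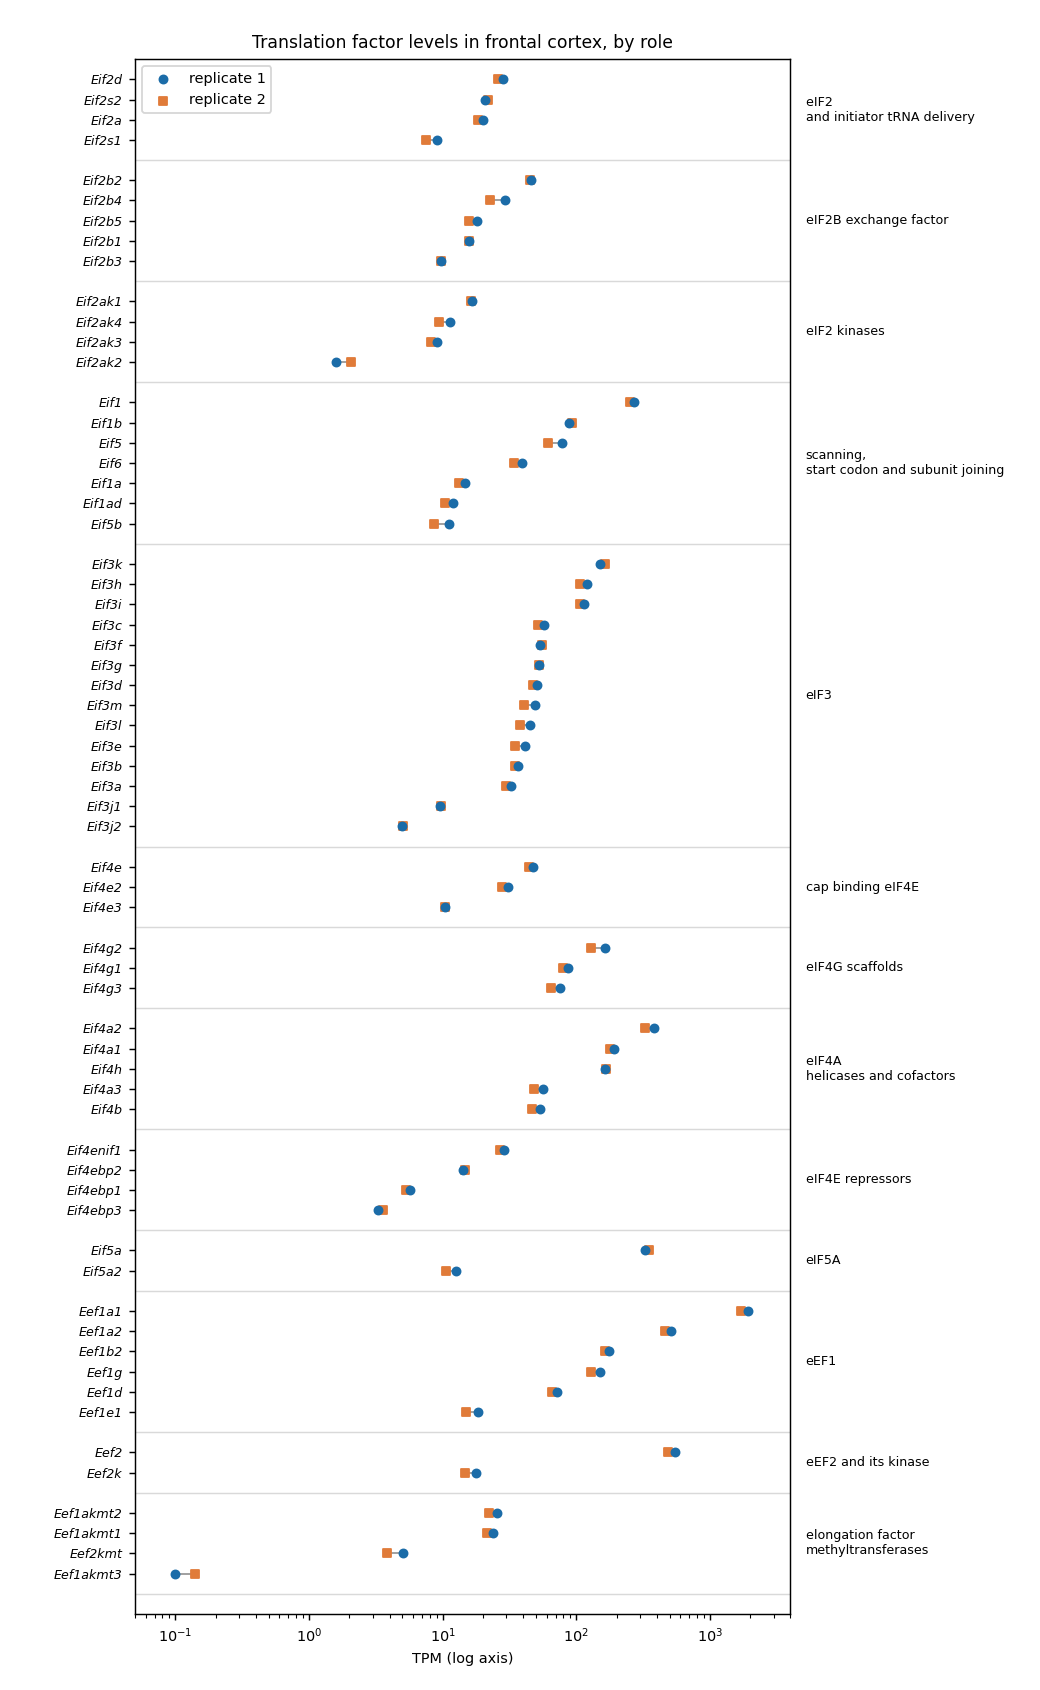
TPM of each translation factor in replicate 1 (circles) and replicate 2 (squares) on a log axis, grouped by role and sorted by mean within a group. Eef1a1 lies furthest right at 1915 and 1720 TPM and Eef1akmt3 furthest left, and Eif4e1b, with 0 counts, is not drawn.

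Elongation was led by eEF1A, the tRNA carrier. The 6 genes of the eEF1 list summed to 2843 TPM in replicate 1 and 2556 TPM in replicate 2, or 42.2% of the level of all factors. Eef1a1 (ENSMUSG00000037742, mm10 chromosome 9, 78478449 to 78489151, minus strand), the widely made form, had 1915 and 1720 TPM. Eef1a2 (ENSMUSG00000016349, chromosome 2, 181147653 to 181157014, minus strand), the form known from adult neurons and muscle, had 512 and 462 TPM. Eef1a1 was thus the higher form in both libraries, by a log2 ratio of 1.90 ± 0.0046, or 3.73-fold. Even so, Eef1a2 was the third most abundant of the 64 factors.

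The exchange subunits that recharge eEF1A were less abundant than eEF1A itself. Eef1b2, the alpha subunit of the complex, had 177 and 163 TPM. Eef1g, the gamma scaffold, had 150 and 129 TPM, and Eef1d, the delta subunit, had 71.4 and 65.4 TPM. The order Eef1b2, Eef1g, Eef1d held in both libraries on whole-gene TPM, with log2 ratios to Eef1b2 of -0.28 ± 0.07 for Eef1g and -1.31 ± 0.01 for Eef1d. It did not hold on transcripts annotated as protein-coding, where the log2 ratios to Eef1b2 were 0.96 for Eef1g and 0.23 for Eef1d, because much of the Eef1b2 level was assigned to a transcript of the nonsense-mediated decay class described further on. Eef1e1, whose product sits in the aminoacyl-tRNA synthetase complex, was the least abundant of the eEF1 list at 18.2 and 15.0 TPM.

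Eef2 (ENSMUSG00000034994, chromosome 10, 81176631 to 81182498, plus strand), the translocase, had 549 and 486 TPM. Its mRNA was below that of Eef1a1 in both libraries, with a log2 ratio of 1.81 ± 0.015 for Eef1a1 over Eef2. Eef2k, the calmodulin-dependent kinase that inhibits eEF2, had 17.9 and 14.7 TPM, so the mRNA of the substrate was 31.9-fold above that of its kinase. Of the enzymes that methylate lysines of elongation factors, Eef1akmt2 had 25.6 and 22.2 TPM and Eef1akmt1 had 23.6 and 21.5 TPM, levels that were not apart in the deposited intervals of both libraries. Eef2kmt, which acts on eEF2, was lower at 5.04 and 3.86 TPM.

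Eif5a, the factor that carries the modified residue hypusine and helps the ribosome through difficult peptide bonds, was the fifth most abundant factor at 326 and 352 TPM. Its relative Eif5a2 had 12.6 and 10.6 TPM, a log2 ratio of 4.87 ± 0.25 or 29.2-fold in favour of Eif5a. On counts not divided by length the same ratio was 2.48, as the Eif5a2 transcript is 5027 nt long and the leading Eif5a transcript 1343 nt. Both enzymes that make hypusine were measured, Dohh at 58.4 ± 2.15 TPM and Dhps at 34.2 ± 1.94 TPM.

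Among the cap-binding and helicase factors, eIF4A mRNAs exceeded those of eIF4E and eIF4G. The eIF4A helicases with their cofactors summed to 849 and 772 TPM, the 3 eIF4G scaffolds to 327 and 273 TPM, and the 4 eIF4E genes to 88.8 and 82.4 TPM. Eif4a2, the helicase form that was higher here, had 382 and 328 TPM. Eif4a1, its near-twin, had 192 and 180 TPM. The log2 ratio of Eif4a2 over Eif4a1 was 0.99 in replicate 1 and 0.87 in replicate 2. Eif4a3, which is a core protein of the exon junction complex and not of cap binding, had 56.5 and 48.4 TPM. Of the helicase cofactors, Eif4h had 165 and 168 TPM and Eif4b 53.2 and 46.8 TPM, so Eif4h was the higher by a log2 ratio of 1.74 ± 0.15.

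Eif4e, the cap-binding protein, had 47.4 and 44.1 TPM. Its relatives were lower in both libraries, Eif4e2, a cap-binding repressor, at 31.0 and 27.9 TPM and Eif4e3 at 10.5 and 10.4 TPM. The eIF4E-binding proteins, which block the contact between eIF4E and eIF4G until they are phosphorylated, were lower than Eif4e as well. Eif4ebp2, the form known as the main one in brain, led them at 14.1 and 14.7 TPM, above Eif4e3. Eif4ebp1 had 5.70 and 5.35 TPM and Eif4ebp3 3.30 and 3.55 TPM. In both libraries Eif4ebp2 stood above the other two, with log2 ratios of 1.38 ± 0.11 over Eif4ebp1 and 2.07 ± 0.03 over Eif4ebp3. Set against its target, Eif4ebp2 was 3.17-fold below Eif4e, a log2 ratio of -1.67 ± 0.12. Eif4ebp3 rested on 146 and 141 counts, and 67.3% of its exon bases overlap another coding locus of M21 on the same strand that was not analysed here. Eif4enif1, which carries eIF4E into the nucleus, was the most abundant of the eIF4E repressors listed at 28.8 and 27.0 TPM.

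Of the scaffolds, Eif4g2, a relative that lacks the eIF4E-binding site, was highest at 165 and 128 TPM. Eif4g1 had 86.8 and 80.1 TPM and Eif4g3 75.2 and 65.0 TPM. Eif4g3 was lower than Eif4g1 by a log2 ratio of -0.25 ± 0.07 on whole-gene TPM, but the sign turned to 0.25 on coding transcripts alone and to 0.14 on counts. No order between Eif4g1 and Eif4g3 can therefore be read independently of how transcripts are counted.

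**Figure D2:**
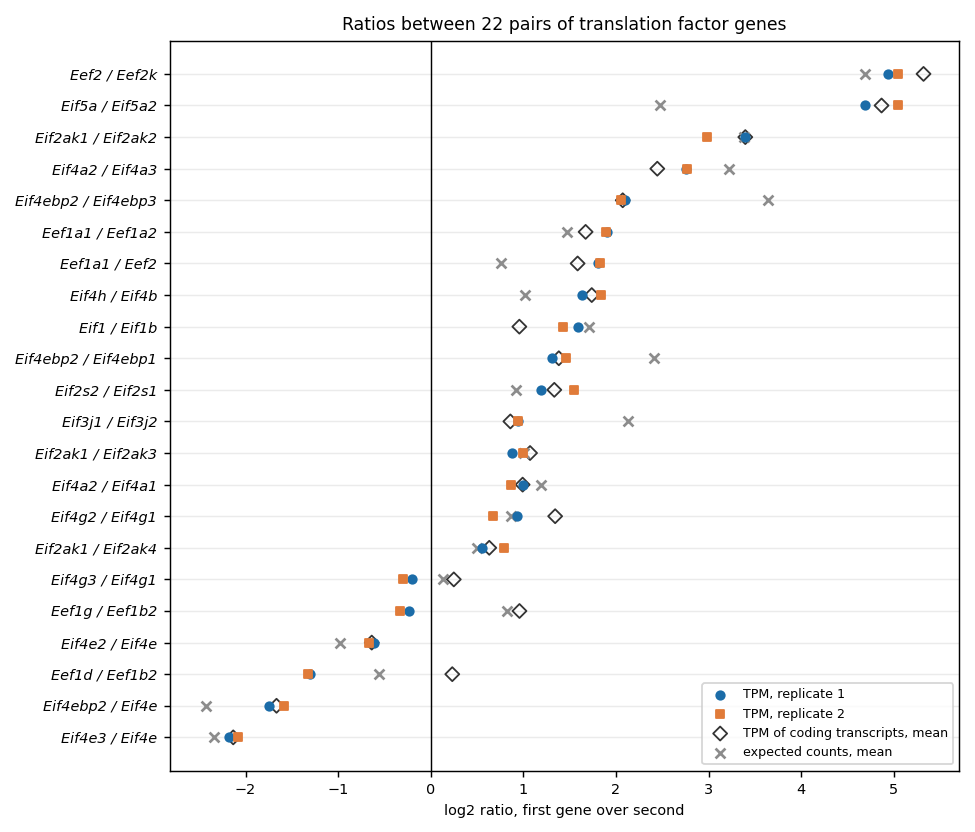
Log2 ratio of the first gene over the second for 22 pairs, from TPM in replicate 1 (circles) and replicate 2 (squares), from TPM of coding transcripts (diamonds, mean) and from expected counts (crosses, mean). Mean TPM ratios run from 5.00 for Eef2 over Eef2k to -2.13 for Eif4e3 over Eif4e, and the diamonds of Eif4g3, Eef1g and Eef1d lie on the other side of 0 from the circles.

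The factors that bring the initiator tRNA and their regulators were of moderate level. Eif2s1, the alpha subunit of eIF2 whose phosphorylation lowers initiation, had 9.04 and 7.44 TPM. Eif2s2, the beta subunit, had 20.7 and 21.7 TPM, higher by a log2 ratio of 1.37 ± 0.25. Eif2d, a factor that can place initiator tRNA without eIF2, had 28.0 and 26.1 TPM, and Eif2a, which has a related function, had 20.2 and 18.3 TPM. The 5 subunits of the exchange factor eIF2B, whose human genes are mutated in a leukodystrophy, ranged from 45.6 and 45.1 TPM for Eif2b2 to 9.79 and 9.71 TPM for Eif2b3, with Eif2b4 at 29.1 and 22.6 TPM, Eif2b5 at 18.0 and 15.8 TPM and Eif2b1 at 15.8 and 15.7 TPM. Eif2b5 and Eif2b1 were the neighbours in that order whose deposited intervals were not apart in both libraries.

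All 4 kinases of eIF2 were detected, at 38.7 and 35.9 TPM in sum. Eif2ak1, the kinase known for sensing heme, was highest at 16.7 and 16.3 TPM. Eif2ak4, which senses uncharged tRNA, had 11.4 and 9.40 TPM, and Eif2ak3, the kinase of the endoplasmic reticulum stress response, had 9.08 and 8.13 TPM. Eif2ak2, which senses double-stranded RNA and is induced by interferon, was lowest at 1.58 and 2.05 TPM, 9.15-fold below Eif2ak1 by a log2 ratio of 3.19 ± 0.29. The order of the 4 was the same in both libraries, but the deposited intervals of Eif2ak4 and Eif2ak3 were not apart in both.

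The gamma subunit of eIF2, which binds GTP and the tRNA, is encoded on the sex chromosomes and so lies outside the set of 64. The X-linked Eif2s3x was given 9547 counts in replicate 1 and 12454 counts in replicate 2, and the Y-linked Eif2s3y 7150 counts and 3 counts. After scaling to library size, the log2 ratio of replicate 1 over replicate 2 was -0.66 for Eif2s3x, with a counting interval of -0.70 to -0.63 at 95%. Both genes together came to 161 CPM (counts scaled to the library total) in replicate 1, against 146 CPM in replicate 2, so that their log2 ratio was 0.14, with 42.8% of the gamma counts of replicate 1 from Eif2s3y. Summed TPM gave a different picture, 88.1 TPM in replicate 1 against 48.7 TPM in replicate 2 and thus a log2 ratio of 0.85, because the effective length assigned to Eif2s3y was 1607 nt against 3365 nt for Eif2s3x in replicate 1. Transcripts annotated as protein-coding held 23.9 of the 53.8 TPM of Eif2s3y in replicate 1, and 3221 of its 7150 counts. For Eif2s3x in replicate 1 they held 33.4 of 34.3 TPM and 9509 of 9547 counts. The sums and the share of Eif2s3y above therefore include much that is not annotated as coding. In TPM the gamma mRNA exceeded that of the alpha and of the beta subunit in each library. Eif1ax, the X-linked partner of the autosomal Eif1a, had 30.8 and 26.5 TPM, with a replicate ratio of 0.05.

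**Figure D3:**
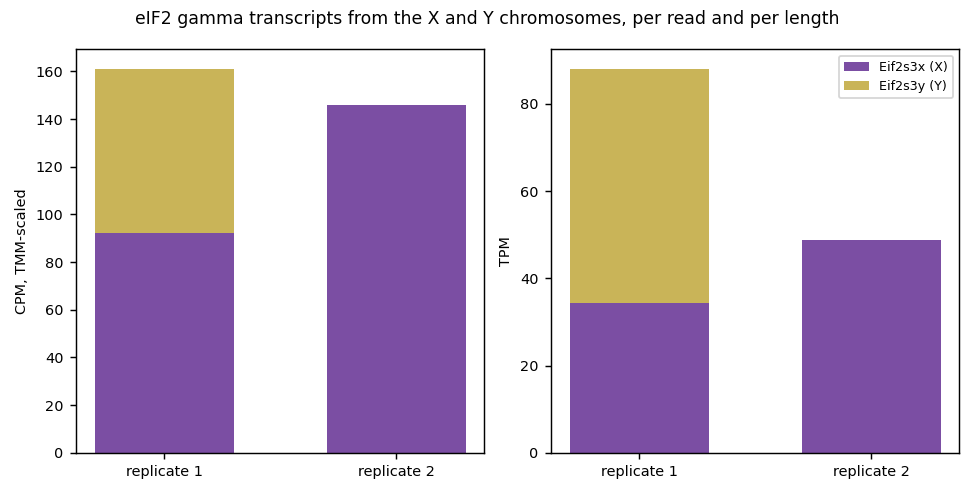
Level of eIF2 gamma mRNA from Eif2s3x and Eif2s3y, stacked, in each library, as scaled CPM on the left and as TPM on the right. Eif2s3y is visible in replicate 1 alone, and the stacked totals are 161 and 146 CPM but 88.1 and 48.7 TPM.

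In the group for scanning and start codon choice, Eif1, which keeps the scanning ribosome open until the start codon is met, led at 268 and 252 TPM. Eif1b, its paralog, had 88.9 and 93.4 TPM, lower by a log2 ratio of 1.51 ± 0.12 for Eif1 over Eif1b. Eif5, the GTPase activator of eIF2, had 77.9 and 60.9 TPM, and Eif6, which keeps free large subunits apart, had 38.9 and 34.0 TPM. Eif1a, which acts beside Eif1, had 14.8 and 13.3 TPM. The lowest were Eif1ad at 11.95 and 10.5 TPM and Eif5b, the GTPase of subunit joining, at 11.2 and 8.61 TPM, and these 2 were not apart in both libraries.

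The 14 genes of eIF3 summed to 818 and 776 TPM but were not level with one another. Eif3k, a small subunit that budding yeast lacks, was highest at 150 and 164 TPM, followed by Eif3h at 121 and 106 TPM and Eif3i at 113 and 106 TPM. The other subunits with 30 TPM or more ran from Eif3c at 57.7 and 51.8 TPM down to Eif3a, the large core subunit, at 32.2 and 29.7 TPM. In between lay Eif3f, Eif3g, Eif3d, Eif3m, Eif3l, Eif3e and Eif3b. Among the 13 steps of this order 6 were not apart in the deposited intervals of both libraries, namely Eif3h to Eif3i, each step from Eif3c to Eif3m, and Eif3e to Eif3b. Eif3j1, the loosely bound subunit, had 9.54 and 9.75 TPM and its copy Eif3j2 4.98 and 5.08 TPM. That makes the range of the list 31.2-fold from Eif3k to Eif3j2, a span that includes the uncertain split of reads between Eif3j1 and Eif3j2.

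Across all 13 lists, 39 of 51 steps between neighbours in level were apart in the deposited intervals of both libraries. By the spread between libraries, 41 of the 51 had ranges of TPM that did not overlap, and 37 met both criteria. All 22 pairs kept their direction in both libraries, with means beyond their SD and intervals apart, 16 with the first gene higher and 6 with the second. With 2 libraries no exact test can go below a two-sided p of 0.5. These counts are therefore statements on the spread between the libraries and on the deposited intervals, whose level is not stated. The lists, pairs and thresholds were chosen with earlier results of these data known. The same share over other pairs of genes is not given here, so the counts do not set these factors apart from other genes.

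Many of the factor genes had part of their TPM in transcripts not annotated as protein-coding. Over all 64 genes, 86.7 ± 0.10% of the TPM was in coding transcripts, 6.27 ± 0.64% in processed transcripts, 3.58 ± 0.49% in retained introns and 3.42 ± 0.0037% in the class annotated for nonsense-mediated decay, a pathway that removes mRNAs with early stop codons. By counts the coding share was 95.1 ± 0.21%, since short noncoding transcripts with few reads gain in a unit divided by length. Among 32 factors at 10 TPM or more with at least 2 transcripts, 19 had under 90% of their TPM in coding transcripts, or 59.4%, against 50.3% of other autosomal protein-coding genes. The coding share had a median of 85.3% in these factors and 89.9% in the other genes. By counts the difference turned round, as 10 of the 32 factors, or 31.3%, were under 90%, against 33.6% of the other genes, with medians of 96.7% and 96.3%.

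The leading transcript was not annotated as coding in 2 of the 32 factors, against 10.4% of the other genes, where leaders missing from M21 count as well. For Eef1b2 it was Eef1b2-205 of the nonsense-mediated decay class, with 62.2 and 62.1% of the TPM of the gene and 49.2% of its counts. Coding transcripts of Eef1b2 held 27.8 and 30.8% of its TPM. For Eif2d it was Eif2d-208, a processed transcript of 739 nt, with 38.9 and 42.3% of TPM but 14.9% of counts, ahead of the coding Eif2d-202 at 35.0 and 32.1%. Some noncoding transcripts held more of the TPM than of the counts. Eif4g1-222 of the decay class held 22.2 and 29.8% of the TPM of Eif4g1 but 14.3% of its counts, and Eif6-207 of that class held 31.1 and 25.1% of the TPM of Eif6 but 9.54% of its counts. Eif4a2-217, also of the decay class, held 14.5 and 11.3% of the TPM of Eif4a2 and 14.1% of its counts. Eif5b-202, a retained intron, held 26.4 and 38.5% of the TPM of Eif5b and 27.8% of its counts.

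**Figure D4:**
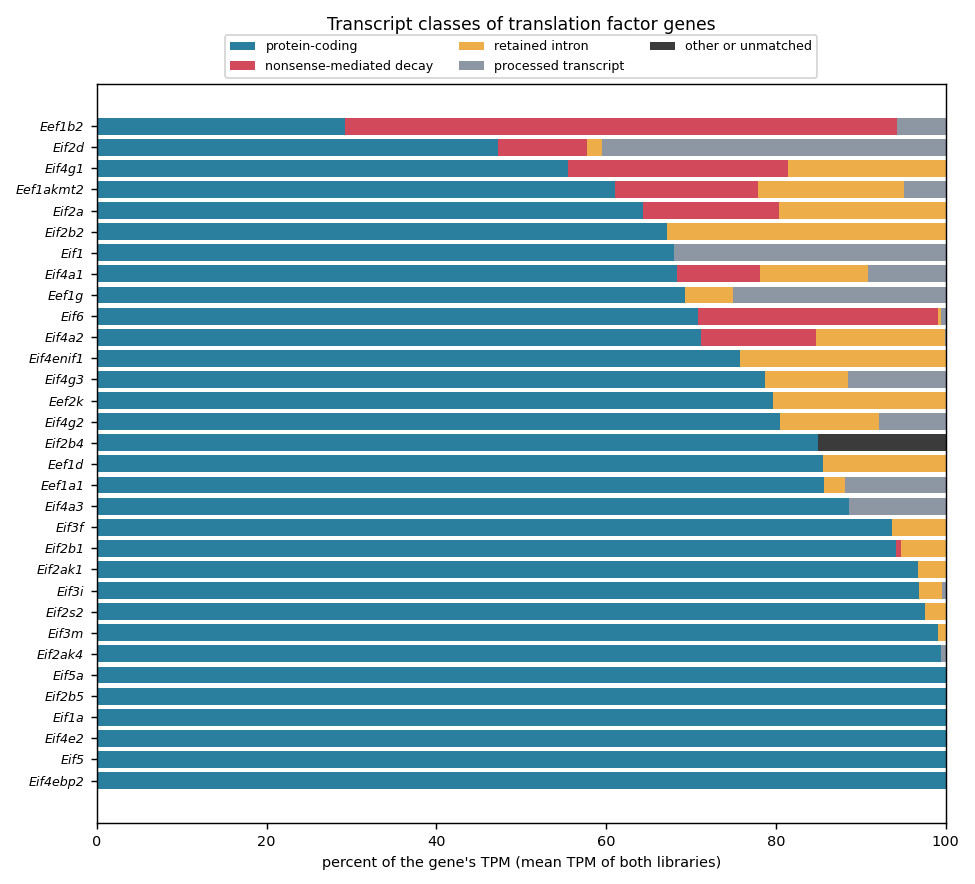
Percent of each gene's TPM, from the mean of both libraries, in transcripts of each annotated class, for 32 factors at 10 TPM or more with at least 2 transcripts. Genes are sorted by coding share, with Eef1b2 and Eif2d at the top and several genes at or near full coding share at the bottom.

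The leading transcript differed between the libraries in 3 of the 32 factors, Eif2b4, Eef2k and Eef1d, against 7.08% of the other genes. In Eef2k the change was between Eef2k-204 and Eef2k-201, at 38.6 and 36.0% in replicate 1 and 40.5 and 40.5% in replicate 2. Both of these transcripts have a coding length of 2175 nt. In Eef1d the leaders Eef1d-204 and Eef1d-213 were also close, at 20.5 and 19.4% in replicate 1 and 21.7 and 21.8% in replicate 2. Eef1d-204 encodes the long form of the protein, with a coding sequence of 1983 nt or 660 residues, known from brain and testis, and it took 39.9% of the counts of Eef1d. In Eif2b4 the leader was Eif2b4-201 in replicate 1, at 36.2% against 28.2% for Eif2b4-203, whereas replicate 2 had 32.3% and 39.6%. A further shift between transcripts with the same leader was seen in Eif4g2, where Eif4g2-213 held 58.1 and 71.5% of TPM. By contrast, 11 transcripts of Eif5a with the same coding length of 465 nt held 98.0 and 98.5% of its TPM.

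Pseudogene copies of the factor genes elsewhere in the genome could share reads with them. Of the pseudogenes of M21 in the reference, 122 had a factor as their best match, covering 30 of the factors, and 65 of these copies had an entry. The copies summed to 48.9 and 33.8 TPM, and 6 reached 1 TPM. Eef1a1 had 23 copies and Eif1 22, of which 12 each had an entry. Those with an entry took 0.594% of the joint counts of Eef1a1 and its copies and 0.819% of those of Eif1. Copies without an entry could not be given reads, so these shares do not cover them. The share was highest for Eif4a1, at 3.90%, nearly all from Eif4a-ps4, which is 99.9% identical over the matched part and was given 12.8 and 7.09 TPM.

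Promoters of 48 factors were found in the RefSeq table for GRCm38.p6. Messages of the translation apparatus are known for a start made of a C followed by pyrimidines. Right at the annotated start, a C with 4 pyrimidines stood in 1 of the 48, Eif3f, or 2.08%, against 3.01% of 27025 genes. That search depends on the exact base annotated as the start, so it cannot show whether the other factors lack such a beginning. Anywhere from 50 bases before to 50 after that start, a C with 6 pyrimidines stood in 27 factors, or 56.3%, against 44.5% of all genes. Among them were Eef1a1, Eef2 and Eef1a2. With the annotated start as base 1, the run began at -4 in Eef1a1 and at 16 in Eef2. In Eef1a2 it began at -30 and lay wholly before the start. The letters TATAAA or TATATAA stood in the same window in Eef1a1, Eef2 and Eif1, 6.25% of the factors, against 4.73% of all genes. In Eef1a1 these letters lay after the annotated start. Only the strand of the gene was searched, and a match is a description of the letters, not a binding site.

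Between the 2 libraries the factors differed little, as did most protein-coding genes. On counts scaled by TMM, none of the 62 factors with a mean of 1 TPM or more passed a log2 ratio of 0.5 in either direction, against 3.19% of 13247 protein-coding genes, 1.46% higher and 1.74% lower in replicate 1, and 5.21% of all annotated genes. Large ratios were rarer among more abundant genes. With a filter at a mean of 10 TPM, 0 of 52 factors passed 0.5, against 1.16% of 7929 protein-coding genes. Among the 62, 1 factor passed a limit of 0.25, Eif2ak2, which was lower in replicate 1. That compares with 14.7% of protein-coding genes in either direction and 7.91% lower in replicate 1. Ratios of replicate 1 over replicate 2 ran from -0.32 for Eif2ak2 to 0.16 for Eif2ak4, with a median of 0.014 and a median of -0.00053 over all protein-coding genes. Of the 62, 32 were above 0, against 49.9% of all protein-coding genes. The counting interval of the ratio left out 0 in 41, against 56.2% of all protein-coding genes, in 23 of them above it and in 18 below, against 27.2% and 29% of all protein-coding genes. Such intervals cover counting error only, which is small at this depth. TPM shifted the median protein-coding gene to 0.13 and the median factor to 0.14, and 50 of the 62 factors had a higher TPM in replicate 1, as did 77.3% of protein-coding genes.

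The lowest ratios were those of the kinase Eif2ak2 at -0.32, Eif3k at -0.24, Eif4ebp3 at -0.23, Eif5a at -0.22 and Eif3f at -0.22. The highest were those of the kinase Eif2ak4 at 0.16, Eef1e1 at 0.15, Eif3m at 0.15, Eef2kmt at 0.15 and Eif2s1 at 0.15. The eIF3 list holds both Eif3k and Eif3m, and the eIF2 kinases hold both ends of the range. By list, all 3 eIF4G scaffolds and 5 of the 6 eEF1 genes had ratios above 0, against 49.9% of all protein-coding genes. Of the eIF4E repressors 0 of 4 had such ratios, and of the detected eIF4E genes 0 of 3. The medians of these lists lay between -0.11 and 0.06. The counting interval included 0 for Eef1b2, Eef1d and Eif4e, and for the repressors Eif4ebp1, Eif4ebp3 and Eif4enif1. Whether lists differ was not tested. Of the 10 lowest and highest ratios named above, 2 had an interval that included 0, those of Eif4ebp3 and Eef2kmt. Markers of some other cell types had larger ratios. All 3 oligodendrocyte markers were lower in replicate 1, with ratios of -0.47 to -0.41 and summed levels of 1253 TPM in replicate 1 and 1608 TPM in replicate 2. All 3 microglia markers were higher in replicate 1, with ratios of 0.31 to 0.41 and summed levels of 148 TPM against 106 TPM. Of the 4 markers of excitatory neurons 2 were lower in replicate 1, with ratios of -0.23 to 0.04, and they summed to 1199 TPM in replicate 1 and 1156 TPM in replicate 2. The 3 markers of GABAergic neurons had ratios of -0.21 to 0.01 and summed levels of 598 TPM and 760 TPM. Most of that sum was Gad1, at 468 and 631 TPM, with a ratio of -0.17 and effective lengths of 2057 and 1554 nt. Slc32a1 had 81.4 and 86.0 TPM, and Gad2 went the other way at 48.5 and 43.3 TPM. The 3 markers of astrocytes had ratios of -0.10 to 0.37 and summed levels of 436 TPM and 414 TPM, and the 2 endothelial markers had ratios of -0.42 to -0.03 and summed levels of 146 TPM and 176 TPM. None of the markers of these cell types was at 0, and their part in the ratios of the factors was not tested.

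**Figure D5:**
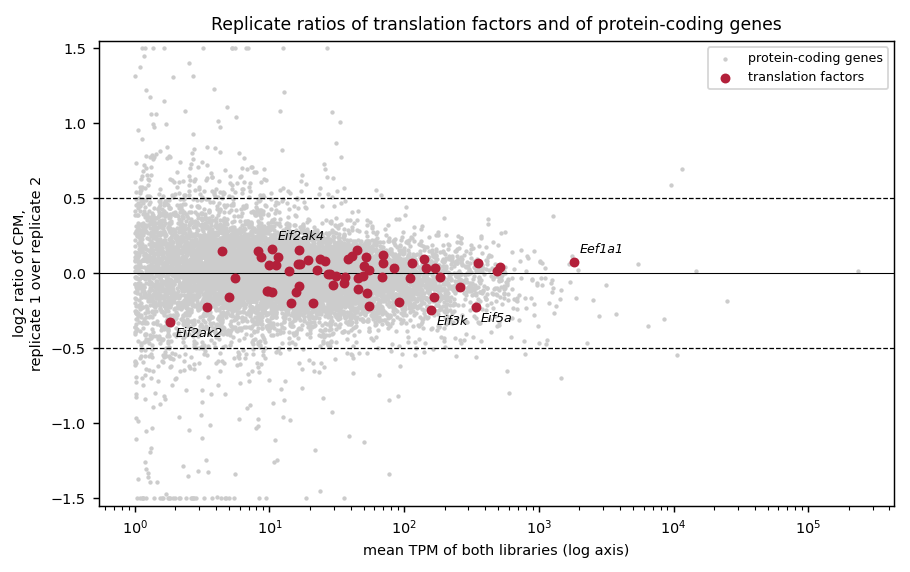
Log2 ratio of scaled CPM, replicate 1 over replicate 2, against mean TPM on a log axis, for 62 translation factors (red) and 13247 protein-coding genes (grey), with dashed lines at 0.5 and -0.5 and 45 genes beyond 1.5 in either direction drawn at the edge. All red points lie between -0.32 and 0.16, inside the dashed lines.

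Partners and regulators of the factors, a list of 37 genes outside the symbol rule, were all measured at 1 TPM or more. Of autosomal protein-coding genes, 61.9% reached that level in both libraries. The median partner stood at 18.9 TPM. Between the libraries 0 of the 37 passed a log2 ratio of 0.5, against 3.19% of 13247 protein-coding genes, and their median ratio was -0.015. The most abundant was Cyfip2, a relative of the eIF4E-binding Cyfip1, at 115 and 104 TPM. Paip2, which competes for the poly(A)-binding protein, had 115 and 99.8 TPM. Atf4, the transcription factor translated when eIF2 is phosphorylated, had 105 and 107 TPM, above each of the 4 eIF2 kinases. Pabpc1, the poly(A)-binding protein itself, had 90.5 and 91.6 TPM. The least abundant partners were Dph5 at 6.56 and 6.73 TPM and Dph2 at 6.63 and 6.64 TPM, both enzymes of the diphthamide residue of eEF2, and the helicase Dhx29 at 5.75 and 4.95 TPM.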

How the data were processed

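Per the deposited text description, the authors quantified each library on mm10 with annotation release M4, with the aligner and the quantification program not given in the sources used here. The deposited values used were expected counts (estimated counts of fragments), posterior mean counts with their posterior SD, TPM, FPKM, bounds of an interval of TPM whose level is not stated, and the percent of a gene's TPM in each transcript. Symbols, classes and coordinates were taken from GENCODE M21 by gene identifier, version stripped.

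Members, lists, pairs and thresholds were chosen with earlier results of these data known. Each list is described by counts and medians. Replicate ratios are log2 of CPM with a prior count of 2, scaled by TMM (1.02 and 0.982) in edgeR 4.0.16 on rounded expected counts without the 96 spike-ins, checked on simulated data. A pair was taken as beyond the spread when its sign was the same in both libraries, its mean exceeded its SD and the deposited intervals did not overlap in either. Counting intervals are exact conditional binomial at 95% and cover counting error only, since without molecular identifiers PCR copies count as separate fragments. Identity came from global alignment of the leading coding sequences, as protein sequences were not used here. Values were given by a rule: the 2 most and 2 least abundant genes of each list, all pair members, the 5 highest and 5 lowest ratios, and genes whose leading transcript was noncoding or differed. Of the partners, the 5 most and 3 least abundant were named, with Dhps added after its value was seen, like Eif4g1, Eif6, Eif4a2, Eif5b, Eif4g2 and Eif5a among the transcripts.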

Additional observations from a re-analysis of the deposited data

How the results depend on the processing

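No paired analysis was possible because the series has 1 group. Over single-library, FPKM and posterior-mean values every one of the 22 pairs kept its direction, as it did with a pseudocount and on rescaled TPM. On coding transcripts alone 3 pairs turned round, Eif4g3 over Eif4g1 to 0.25, Eef1d over Eef1b2 to 0.23 and Eef1g over Eef1b2 to 0.96, and on counts not divided by length 2 did, Eif4g3 over Eif4g1 to 0.14 and Eef1g over Eef1b2 to 0.83. The cause was not tested beyond what these units count. On coding transcripts 26 of the 64 levels moved by more than their SD, and on TPM rescaled to nuclear protein-coding genes 63 did, with a summed level of 12963 in place of 6398 TPM and 58 in place of 51 factors at 10 TPM. The eEF1 share of the summed level was 42.2%, with 41.8 to 42.5% in single libraries and 40.8% on coding transcripts. The count of factors past the ratio limit was 0 under DESeq2 size factors, library size, spike-in total, TPM, posterior means, a prior count of 0.5, a filter at 10 TPM and a limit of 1. Under these settings 2.63 to 3.30% of protein-coding genes passed, except for 1.16% with the filter at 10 TPM and 0.747% at a limit of 1. With no filter 1 factor passed, Eef1akmt3 at -0.61 on 20 and 26 counts, against 14.5% of 21474 protein-coding genes. At a limit of 0.25 it was 1 factor, Eif2ak2, against 14.7%. Factors with under 90% of TPM in coding transcripts numbered 19, with 18 to 19 in single libraries, and 10 by counts, where short noncoding transcripts weigh less by construction and other genes have the larger share under 90%. Depth limits the values of Eif4e1b, Eef1akmt3 and Eif4ebp3, which rest on at most 146 counts a library.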
